A study of Mus musculus with 46 samples.

Results

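Zfp882 and Zfp961 are neighbouring zinc finger genes at one end of the Klf2 locus on mouse chromosome 8, and 3 promoter fragments from them were measured as reporter drivers in mouse embryonic stem cells. The fragments were taken by their identifiers: P001 and P002 at Zfp882, and P003 at Zfp961. They are 3 of the 23 promoter fragments of the locus. The Upstream table holds 1596 constructs with at least 1 of them, of 19789 constructs of the Klf2 locus, and the Downstream table holds 184 constructs driven by P001, of 2364. The study placed fragments with starts and ends 450 bp apart next to a barcoded reporter, singly or in pairs, to ask which candidate cis-regulatory elements (cCREs) raise the output of which promoters. All constructs were transfected transiently into E14TG2a, a single embryonic stem cell line kept in 2i+LIF medium, and RNA was taken 24 h later. The Upstream constructs of Klf2 were transfected in a mix with Nanog-locus and negative control libraries, and the Downstream constructs in a separate mix, with 3 transfections of each mix. The activity of a construct is its barcodes in reporter RNA over those in the plasmid input. The plus and minus signs after a fragment give its orientation in the construct as the tables list it, and the fragment written second stood next to the reporter.

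Zfp882, Zfp617 and Zfp961 belong to the C2H2 zinc finger genes, a class of DNA-binding proteins that often lie in tandem arrays of related copies. Many of them carry a repressor domain and silence transposable elements, and their own start regions are often GC-rich and lack a TATA box. A promoter is the stretch around a transcription start, while an enhancer raises a promoter's output from elsewhere. In a plasmid the spacing and chromatin of the locus are lost, so the assay reads what the fragments can do next to each other.

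P001 covers 8:71908245-71908695 (mm10) and holds the RefSeq start of Zfp882 at 71908606, on the plus strand. P002 covers 8:71908703-71909153. It begins 97 bp after that start, inside the gene, and contains no RefSeq start. P003 covers 8:71950662-71951112 and holds the Zfp961 start at 71951066, also on the plus strand. Between them lies E007, 8:71922525-71922975, listed as a cCRE although it holds the start of Zfp617 at 71922825. The next element, E008, starts at 71922906 and overlaps the end of E007. The start regions of the 3 genes are shown because the results turn on these fragments. Each runs from 250 bases before the start to 29 after its first base, 5′ to 3′ on the plus strand, from RefSeq's table for GRCm38.p6. Capitals mark CCGCCAT, the core of the motif of YY1, a zinc finger factor that binds near starts, and CGGAAG, the core of the ETS family motif, on either strand.
Zfp882, in P001, 8:71908356-71908635: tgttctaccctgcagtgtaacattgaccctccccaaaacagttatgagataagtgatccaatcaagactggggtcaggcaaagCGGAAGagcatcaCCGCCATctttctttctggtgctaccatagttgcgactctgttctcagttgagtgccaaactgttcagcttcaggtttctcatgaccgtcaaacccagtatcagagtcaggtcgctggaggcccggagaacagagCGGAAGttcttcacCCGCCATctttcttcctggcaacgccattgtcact
Zfp617, in E007, 8:71922575-71922854: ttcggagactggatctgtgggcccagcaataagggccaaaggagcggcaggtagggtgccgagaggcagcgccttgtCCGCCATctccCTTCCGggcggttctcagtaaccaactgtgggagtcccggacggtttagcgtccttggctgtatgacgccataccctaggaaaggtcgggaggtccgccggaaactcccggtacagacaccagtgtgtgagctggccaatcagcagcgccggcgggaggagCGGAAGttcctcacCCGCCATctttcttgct
Zfp961, in P003, 8:71950816-71951095: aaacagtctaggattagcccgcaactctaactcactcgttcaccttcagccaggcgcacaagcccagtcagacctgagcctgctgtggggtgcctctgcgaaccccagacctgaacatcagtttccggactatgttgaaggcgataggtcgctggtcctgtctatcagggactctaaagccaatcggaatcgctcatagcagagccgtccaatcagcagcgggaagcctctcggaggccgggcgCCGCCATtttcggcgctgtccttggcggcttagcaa

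The Zfp882 and Zfp617 starts share most of a stretch that holds both cores. Over 34 bases, beginning 22 bases before the Zfp882 start and 4 bases before the Zfp617 start, 32 bases were identical. Both windows hold 2 copies of CCGCCAT and 2 of CGGAAG. The Zfp961 window holds 1 copy of CCGCCAT, 6 bases before the start, and no CGGAAG. The first of these cores occurred on either strand in 3.10% of the 32851 RefSeq start windows of the same length and the second in 16.0%. Both occurred together in 1.09%. All 3 windows hold CCAAT (36.1% of all windows) and none holds TATAAA (13.1%). The Zfp882 window has a GC content of 50.4% with 9 CpG dinucleotides, against 61.8% with 20 for Zfp617 and 57.9% with 18 for Zfp961. The medians over all windows are 52.5% and 6. These matches describe letters and were not tested as binding sites.

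The 3 fragments differed widely in what they did alone. P003 in plus orientation was among the strongest promoters of the locus, P001 was intermediate, and P002 lay near the level of a construct without a fragment. P003+ measured 9.63, 9.38 and 7.63 in replicates 1 to 3, rank 3 by geometric mean (8.83) of 46 oriented promoters. Every one of its values lay below those of P017+ at the Eps15l1 start (12.2 to 15.0) and P022+ at the Smim7 start (16.6 to 19.8), while the values of P021+ at the Med26 start (7.20 to 8.53) overlapped it. P003- measured 2.15, 2.33 and 2.03, among neighbours whose values overlapped, such as P017- (2.13 to 2.21) and P009+ at Rab8a (2.02 to 2.24).

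P001+ measured 1.12, 1.18 and 1.17, just below P016+ at the start of Klf2, a pluripotency factor gene (1.20 to 1.49), and overlapping P009- (1.03 to 1.21). P001- measured 0.368, 0.348 and 0.510 and overlapped P025+ and P013- next to it. P002- measured 0.185, 0.188 and 0.320, and P002+ measured 0.145, 0.109 and 0.282. A construct listed as empty, measured in the same mix, gave 0.122, 0.0700 and 0.240, and its values overlapped those of P002 in both orientations. Within each replicate both orientations of P002 lay above the empty construct, a difference that was not tested. At this level replicate 3 was highest and replicate 2 lowest for most fragments.

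**Figure D1:**
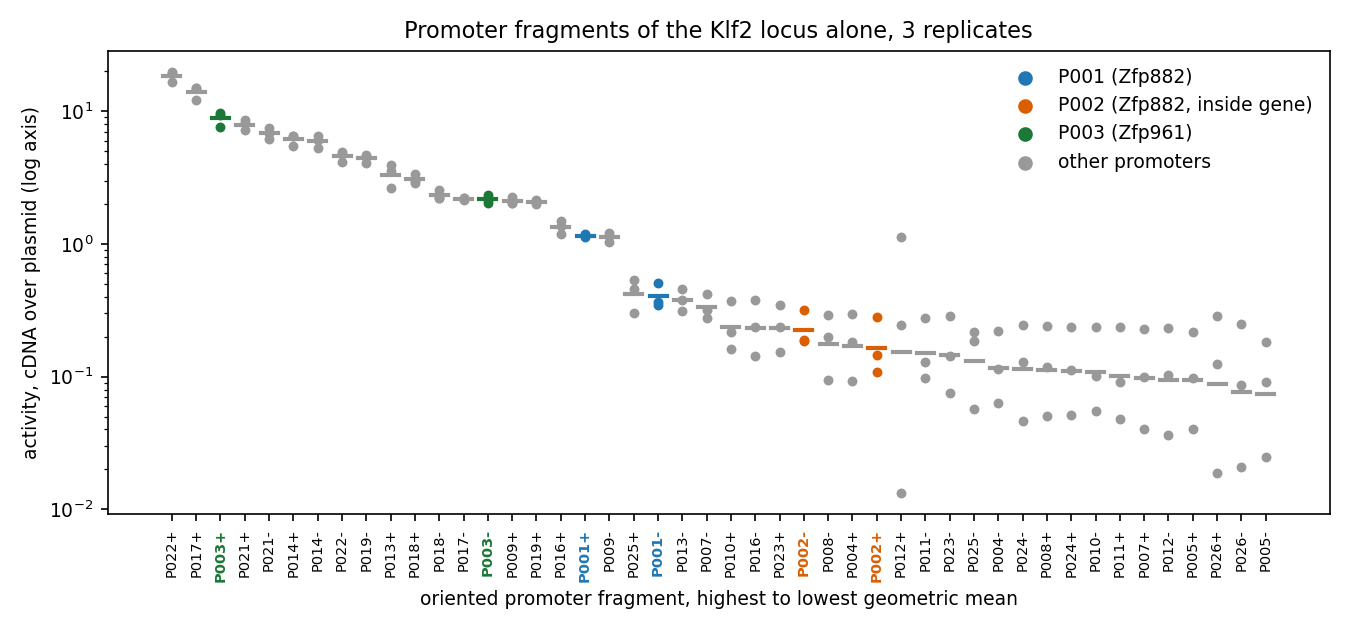
Activity of each oriented promoter fragment of the Klf2 locus without a second fragment, on a log axis, ordered by geometric mean; points are the 3 replicates and lines the geometric mean. P003+ stands at rank 3, P001+ in the middle of the order, and P002 in the group at the low end where replicates scatter most.

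Orientation mattered for the fragments that hold a start. P003 was 4.08-fold more active in plus than in minus orientation (log2 difference 2.03, SE 0.30, adjusted p = 0.0110, limma), and P001 2.87-fold (1.52, SE 0.32, adjusted p = 0.0449). In plus orientation all 3 values of P003 and of P001 lay above all 3 minus values. For P002 the difference was -0.44 (SE 0.49, adjusted p = 0.974), with overlapping values. Over 99 fragments of the locus measured in both orientations, 7.07% passed. Without replicate 1, 2 or 3 the P001 difference lay between 1.40 and 1.69 and missed the threshold each time, and without replicate 1 or 2 so did that of P003 (1.96 and 2.03).

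Which cCREs raise these promoters was asked by placing a cCRE upstream of each. E007, the Zfp617 start region, gave the highest boost with 5 of the 6 oriented fragments and was level with the highest for P001-. With P002+ the E007+ construct measured 7.76, 8.91 and 6.67, where P002+ alone stayed at or below 0.282, a log2 change of 5.55 (SE 0.39, adjusted p = 0.00638). With P002- it measured 5.35, 6.44 and 4.65 (4.60, SE 0.28, adjusted p = 0.00638). No value of either construct came near those of P002 alone. With P001+ it measured 5.22, 5.95 and 4.45 (2.16, SE 0.15, adjusted p = 0.00638), and with P001- 1.29, 1.50 and 1.34 (1.77, SE 0.19, adjusted p = 0.00769). With P003- the values were 6.36, 6.98 and 4.81 (1.46, SE 0.18, adjusted p = 0.0113). With P003+ they were 11.3, 14.4 and 9.19, which overlapped P003+ alone (0.37, SE 0.21, adjusted p = 0.330). E007+ alone measured 9.07, 9.31 and 7.57, the highest of 165 oriented cCREs, whose median was 0.120, so this element was itself about as active as P003+.

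**Figure D2:**
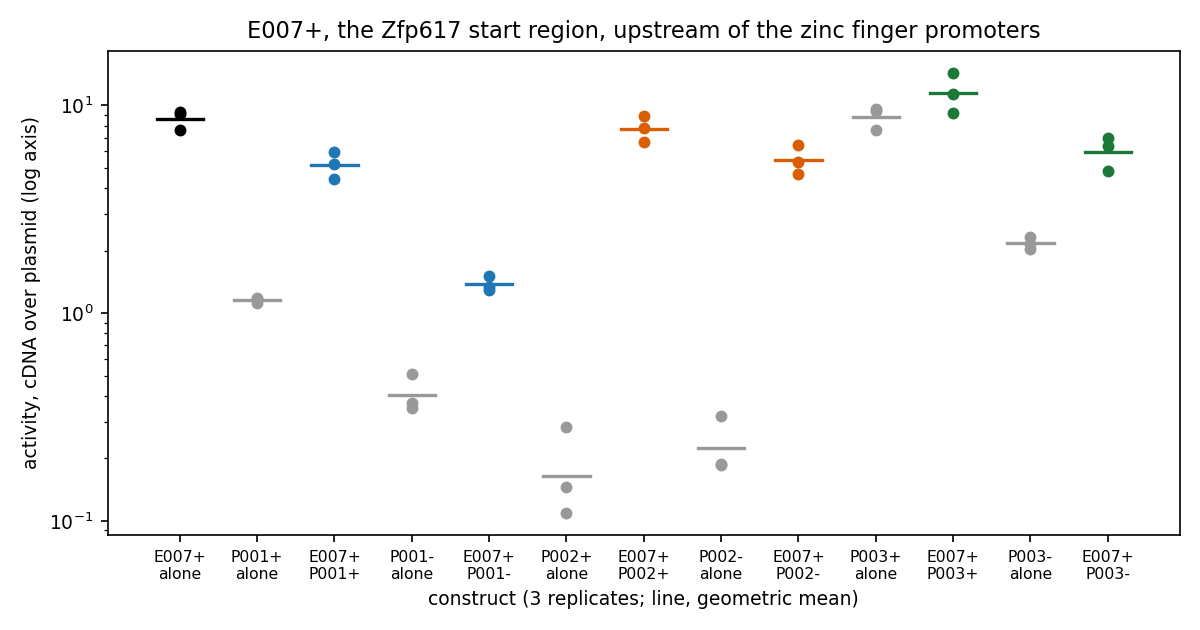
Activity (log axis) of E007+ alone, of each oriented zinc finger promoter alone (grey) and of the construct with E007+ upstream (coloured), 3 replicates with the geometric mean as a line. The gap between the grey and the coloured points is widest for P002 and closes for P003+, where the values overlap.

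Higher calls came from 5 different cCREs with P001, 11 with P002 and 10 with P003. E007 and E097 were the 2 that were higher with all 3 fragments, in at least 1 orientation of each. Of 625 cCRE constructs with the 3 fragments, those past the threshold were counted against the promoter alone. P001 had 11 higher and 76 lower of 259 (72 of the lower with P001+), P002 19 higher and 0 lower of 213, and P003 10 higher and 12 lower of 153. All 10 higher calls of P003 came with P003- (71 pairs), against 0 with P003+ (82 pairs). P002 alone lay near the empty construct, and whether this limited its lower calls was not tested. P010+ and P023+, also weak alone, had 0 lower calls as well, while P013- had 5 of 91. Over all 3685 pairs of the locus 16.1% passed, 4.10% higher and 12.0% lower. The median log2 change was -0.73 with P001, -0.06 with P002 and -0.15 with P003, against -0.28 over all pairs. All constructs of an oriented promoter share the same 3 baseline values, so an offset in that baseline moves them together. The 76 lower calls of P001 depended on this baseline: against the median cCRE construct in place of the promoter alone, P001 had 21 higher and 2 lower, and P003 6 higher and 5 lower, where 7.25% of all pairs passed, 4.83% higher and 2.42% lower. Comparing within each transfection (a replicate block) gave 14 higher and 144 lower for P001, 34 higher and 5 lower for P002 and 13 higher and 20 lower for P003, where 28.2% of all pairs passed, 6.62% higher and 21.6% lower. No call remained when any 1 replicate was left out, although the sizes moved little (for E007+ with P002+, 5.15 to 6.04).

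The elements past the threshold in the higher direction with P001 came from 5 cCREs: E006, E007, E008, E011 and E097. E097, 8:72676845-72677295 within Nwd1, raised P001+ to 2.80, 3.26 and 3.13 (log2 change 1.40, SE 0.12, adjusted p = 0.00681), P002- to 4.59, 4.18 and 3.71, and P002+ to 2.77, 2.10 and 2.03. All of these lay above the promoter alone in every replicate. E097 alone measured 2.31, 1.93 and 2.04 in plus orientation, rank 3 of 165 oriented cCREs, and 1.31, 0.906 and 0.993 in minus. The construct with P002+ thus overlapped E097+ alone, while those with P001+ and P002- lay above E097+ alone in every replicate. E011, 8:71952937-71953387 within Zfp961, raised P002- in minus orientation to 2.65, 2.57 and 2.46 (3.52, SE 0.25, adjusted p = 0.00638). E011- alone measured 1.67, 1.65 and 1.79. E006, 8:71900631-71901081, upstream of Zfp882, raised P001+ to 1.66, 1.89 and 1.67 (0.59, SE 0.12, adjusted p = 0.0307).

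Elements at the other end of the order reduced P001 and P003. E030+, 8:72125819-72126269 at the start of Gm39196, gave 0.349, 0.386 and 0.482 with P001+ (-1.52, SE 0.16, adjusted p = 0.00769) and 0.634, 0.647 and 0.887 with P003- (-1.60, SE 0.18, adjusted p = 0.00859). With P003+ it gave 4.62, 5.45 and 3.54 (-0.98, SE 0.21, adjusted p = 0.0373). Each set lay below the promoter alone in every replicate. E092-, within Nwd1, gave the lowest value with P003+ (3.44, 4.31 and 3.93; -1.19, SE 0.16, adjusted p = 0.0139). E065- and E038- were lowest with P001+ beside E030+, at 0.394, 0.357 and 0.459 and at 0.416, 0.358 and 0.467. The lowest constructs of P002 and P001- had replicates spread over several log2 units (E003+ with P002+ measured 0.0720, 0.0055 and 0.286) and missed the threshold.

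The spread of cCRE effects differed between the fragments. The boost index of a pair is log2 of its activity over the median cCRE construct with the same oriented promoter, so that 0 is the typical pair. Its SD over pairs was 1.21 with P002+ (108 pairs) and 1.02 with P002- (105 pairs), ranks 3 and 5 of 46 oriented promoters. It was 0.58 with P001+ (126 pairs) and 0.71 with P001- (133 pairs). With P003- it was 0.56 (71 pairs) and with P003+ only 0.29 (82 pairs), rank 44. Such spreads were not particular to these fragments. P024- (1.23, 30 pairs) and P023+ (1.05, 79 pairs), also weak alone, spread about as widely as P002. P017+, also strong alone, spread as little as P003+ (0.29, 135 pairs). Not every weak fragment was wide, as P007+ had 0.52 (84 pairs). The highest index of any P003+ pair was 0.59 (SD over replicates 0.14), and 0 pairs exceeded 1, against 18 pairs of P002+ with a maximum of 5.66 (SD 0.99), the highest of all 46. Replicate 2 contributed most to the spread with P002+ (SD 1.76, against 1.30 and 0.89 in replicates 1 and 3), whose low constructs had the lowest values there. The indices of the same oriented cCREs correlated between P001+ and P001- with Pearson's r = 0.82 (n = 126) and between P003+ and P003- with r = 0.74 (n = 67). Over cCRE means r was 0.82 between P001 and P002 (n = 70), 0.79 between P001 and P003 (n = 58) and 0.64 between P002 and P003 (n = 58). Promoters of other genes reached values as high, with 0.82 for P001 and P009 (n = 78), 0.87 for P002 and P023 (n = 67) and 0.86 for P003 and P021 (n = 58). Others were lower, such as 0.50 for P001 and P007 (n = 64). These are descriptions across cCREs from the same 3 transfections.

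**Figure D3:**
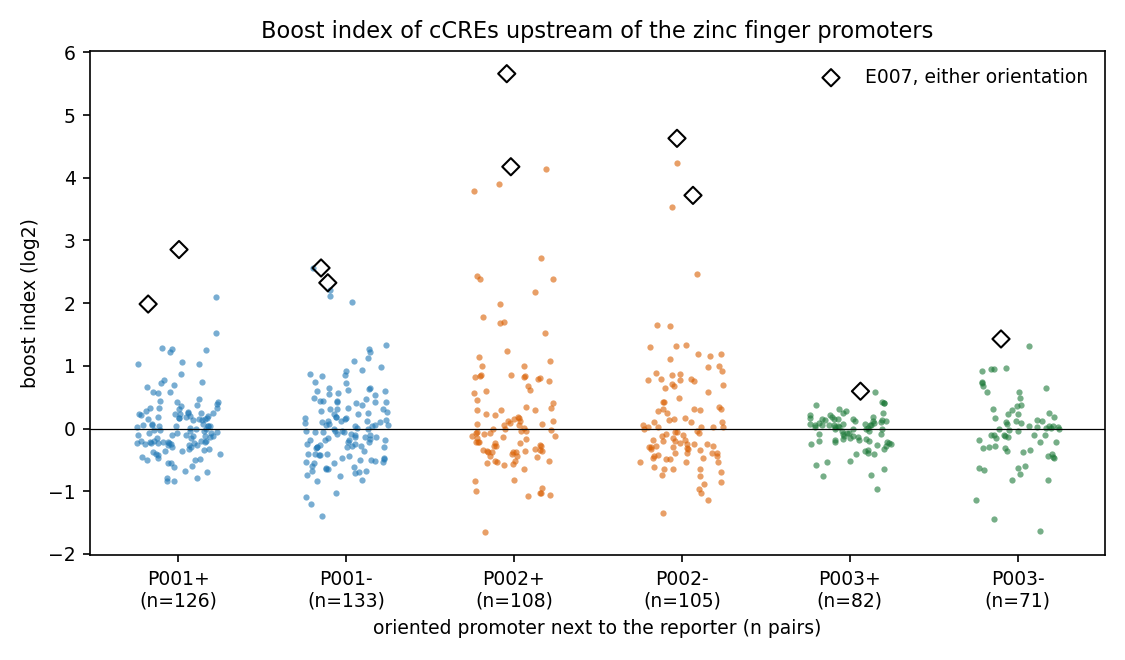
Boost index (log2) of each cCRE upstream of each oriented zinc finger promoter, 1 point per pair, with E007 in either orientation as open diamonds. The points of P002 reach 5.66 in plus orientation while those of P003+ stay between -0.97 and 0.59.

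The cCREs near the genes had higher boost indices on median than the others. For cCREs starting within 50 kb of a member fragment, the median boost index was 0.24 with P001 (63 pairs), 0.50 with P002 (52 pairs) and 0.16 with P003 (38 pairs). For the others it was -0.06 (196 pairs), -0.09 (161 pairs) and -0.02 (115 pairs). Pairs of 1 cCRE are not independent, and E005 and E006, E007 and E008, and E020 and E021 overlap, so no test was made. The near set also holds E007 and E011, with ranks 1, 2, 4 and 5 of 165 oriented cCREs alone. The same cCREs were not compared in this way with promoters elsewhere in the locus. E004-, which starts 11713 bp before the Zfp882 start, gave 2.56, 3.00 and 2.51 with P002+ but 0.229, 0.144 and 0.399 with P002-. E021+, within Cyp4f18, a fatty acid hydroxylase gene, gave 1.96, 2.54 and 1.91 with P002+ and 0.675, 0.686 and 0.698 with P002-. Their activities alone were 0.469, 0.434 and 0.586 for E004- and 0.520, 0.395 and 0.629 for E021+, below the P002+ constructs in every replicate.

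Whether a cCRE acted differently here than with other promoters was tested by subtracting, in each replicate, the mean index of the same oriented cCRE over promoters of other genes. E007+ stood 3.14 (SE 0.20) above its mean over 41 others with P002+ and 2.17 (SE 0.15) with P002-. It stood 2.08 below with P003+ (difference -2.08, SE 0.22, 43 others) and at 0.38 (SE 0.17) with P001+. The indices were not scaled to each promoter's spread over pairs, which was 1.21 with P002+ and 0.29 with P003+. A cCRE with a high mean index can thus stand above it with P002 and below it with P003+ through spread alone. An action particular to 1 promoter cannot be told apart from this. With limma 0 of 603 member pairs passed, as did 0.0% of all 3626 pairs of the locus; the smallest adjusted p was 0.127. At an unadjusted p under 0.05 there were 141 member pairs (23.4%, against 22.7% of all pairs), and with a variance trend 65 passed (10.8%, against 10.1% of all pairs, 5.35% higher and 4.72% lower): 30 higher and 0 lower with P002, 12 higher and 2 lower with P001, and 6 higher and 15 lower with P003. In that fit E007+ had an adjusted p of 0.00381 with P002+ and 0.00901 with P003+, E004- with P002+ stood 3.64 higher (adjusted p = 0.00561) and E008+ with P001- 1.61 higher (adjusted p = 0.00958). Which of these pairs passed thus changed with the variance model.

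The activity of constructs ending in P002 varied with that of the fragment upstream. With another promoter upstream of P002, 39 of 75 constructs were higher than P002 alone and 0 lower, against 24 higher and 16 lower of 78 for P001 and 13 higher and 9 lower of 61 for P003. As with cCREs, whether the low level of P002 alone limited its lower calls was not tested. Over 1317 promoter pairs of the locus 41.2% passed, 29.9% higher and 11.2% lower. With the replicate block, where 50.3% passed, 34.5% higher and 15.8% lower, the lower calls rose to 26 for P001 and to 16 for P003. P022+, at the start of Smim7, upstream of P002+ gave 14.3, 15.6 and 11.8, a log2 change of 6.39 (SE 0.38, adjusted p = 0.000706), near the 16.6 to 19.8 of P022+ alone. P017+ upstream of P002+ gave 13.8, 14.4 and 11.2, overlapping P017+ alone. With P001+ the P022+ construct gave 8.66, 10.1 and 7.40, and with P003+ 19.7, 23.3 and 19.5 (1.23, SE 0.16, adjusted p = 0.00316). P004-, at the start of Cyp4f18, upstream of P003- gave 0.686, 0.545 and 0.671, below P003- alone in every replicate (-1.78, SE 0.15, adjusted p = 0.00103).

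Across partners, the log2 activity of a construct correlated with that of its upstream fragment alone with r = 0.97 for promoters before P002+ (n = 37) and 0.98 before P002- (n = 38), ranks 3 and 2 of 46, where the median over oriented promoters was 0.84. With cCREs upstream r was 0.86 before P002+ (n = 108) and 0.88 before P002- (n = 105), against a median of 0.68. Before P003+ it was 0.51 (n = 33) with promoters and 0.45 (n = 82) with cCREs, ranks 44 and 44, and before P001+ 0.84 (n = 39) and 0.73 (n = 126). These values were not particular to the zinc finger fragments. With promoters upstream, r was also 0.97 before the weak P023+ (n = 28) and P016- (n = 17), though 0.78 before the weak P005+ (n = 31). Before the strong P014+ and P017+ it was 0.49 (n = 29) and 0.59 (n = 40). For upstream promoters with an activity above 1 alone, the median construct differed by 0.27 in log2 from the upstream fragment alone with P002+ and by -0.71 with P001+ (17 constructs each), and by -0.40 with P002- (18 constructs). These correlations are descriptions over constructs from 1 mix and rest on the wide range of the partners' own activities.

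**Figure D4:**
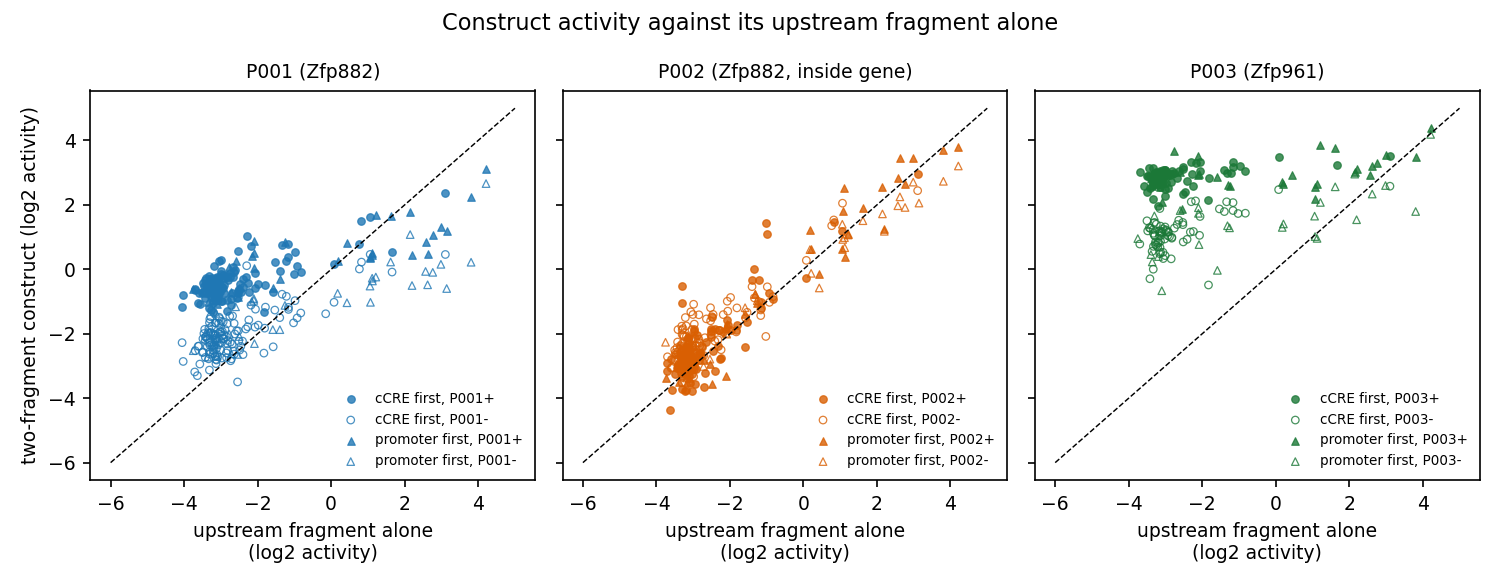
Log2 activity of each construct (vertical) against that of its upstream fragment alone (horizontal), by the fragment next to the reporter; filled and open symbols are its plus and minus orientation, circles have a cCRE and triangles a promoter upstream, and the dashed line marks equal values. Constructs ending in P002 lie along the line, whereas those ending in P003+ lie in a flatter band, with geometric means from 3.66 to 20.8 for promoters and from 3.88 to 11.4 for cCREs upstream.

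As upstream fragments themselves, the 3 differed in how many promoters were higher with them, where 29.9% of all promoter pairs were. P003 upstream gave 19 higher and 0 lower of 41 (46.3% higher), P001 16 higher and 1 lower of 87 (18.4%), and P002 2 higher and 2 lower of 57 (3.51%). The measured partners were not the same for each fragment, so these shares do not compare the fragments over 1 set of promoters. P003 had 34 constructs in minus and 7 in plus orientation, and P002 16 in minus and 41 in plus. With the replicate block P001 had 27 higher and 11 lower, and P002 4 and 4. The largest change for P003- was with P002+ (5.33, 7.39 and 4.89; 5.13, SE 0.40, adjusted p = 0.000878) and for P003+ with P002- (3.95, 5.02 and 3.63; 4.22, SE 0.28, adjusted p = 0.000727). P001+ was also highest with P002+, the fragment that follows it in the genome, at 1.33, 1.89 and 1.50 (3.24, SE 0.39, adjusted p = 0.00247), above P001+ alone (1.12 to 1.18) in every replicate. P003- raised P023+ at the start of Tmem38a to 3.46, 2.50 and 2.39 (3.56, SE 0.35, adjusted p = 0.00142). P002+ raised P004- to 1.29, 1.53 and 0.921 (3.39, SE 0.50, adjusted p = 0.00458), an exception among its partners, and P003- to 3.99, 3.99 and 2.78 (0.71, SE 0.19, adjusted p = 0.0346). In the reverse direction P003+ upstream of P001+ gave 2.17, 2.72 and 1.98 (0.97, SE 0.16, adjusted p = 0.00716), whereas P001+ upstream of P003+ gave 6.14, 7.34 and 5.38 (-0.50, SE 0.18, adjusted p = 0.0810, and 0.0371 with the replicate block), below P003+ alone in every replicate. Without replicate 1 no promoter pair with these fragments passed, in either position. Without replicate 2, 16 constructs passed with P001 next to the reporter and 9 with P003, and with P001, P002 and P003 upstream 5, 1 and 9.

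With a cCRE inserted between the promoter and the reporter, most constructs of P003 and of P001+ gave less than the promoter alone. With a cCRE second, P003 had 109 lower and 1 higher of 120 constructs, P001 174 lower and 13 higher of 301, and P002 1 lower and 18 higher of 167. The orientations of P001 differed, with 143 lower of 155 for P001+ and 31 lower of 146 for P001-. P002 alone lay near the empty construct, and here too a limit on its lower calls was not tested. Over 3987 such constructs of the locus 52.6% passed, 48.8% lower and 3.79% higher. Within each transfection (replicate block) P002 had 26 higher and 14 lower, and P001- had 12 higher and 90 lower. In that fit 63.4% of all constructs passed, 6.97% higher and 56.4% lower. Without replicate 1, 72 constructs passed with P001 and 4 with P002. The median log2 change was -1.89 with P003, -1.36 with P001 (-2.30 with P001+ and -0.91 with P001-) and -0.34 with P002, against -1.18 over all. P003+ followed by E098-, within Nwd1, fell to 0.0930, 0.0193 and 0.232 (-6.89, SE 0.91, adjusted p = 0.00129), overlapping the empty construct. The constructs that went the other way included several with E007, E008 or E011. P001- followed by E007+ gave 3.97, 5.06 and 3.85 (3.40, SE 0.23, adjusted p = 0.000163) and P001+ followed by E007+ 4.03, 7.28 and 5.05 (2.19, SE 0.26, adjusted p = 0.000834). In both, E007+ stood next to the reporter, and E007+ alone (9.07, 9.31 and 7.57) was higher in every replicate. P002+ followed by E011- gave 4.92, 4.33 and 4.06 (4.75, SE 0.38, adjusted p = 0.000230), where E011- alone measured 1.67, 1.65 and 1.79. E008+, which overlaps the end of E007, was the 1 insert that raised P003 past the threshold, with P003- (6.81, 7.20 and 5.48; 1.57, SE 0.19, adjusted p = 0.000831), and after P003+ it gave 14.9, 15.1 and 11.2 (0.62, SE 0.21, adjusted p = 0.0539, and 0.0323 with the replicate block). E008+ alone measured 0.185, 0.138 and 0.328, far below E007+ alone.

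P001 was the one zinc finger promoter also tested with cCREs downstream of the reporter. Against the mean of the control inserts, 92 of 133 cCREs there were higher and 7 lower. Over all 1364 pairs of the 10 promoters tested 52.3% passed, 37.0% higher. With the replicate block 115 were higher and 13 lower, where 83.9% passed, 56.1% higher and 27.9% lower. The median log2 change was 0.72, against 0.18 over all pairs. The direction depended on the baseline. The 10 control inserts averaged 0.142, 0.177 and 0.207, while the P001 vector without insert gave 0.299, 0.368 and 0.394, and against that vector the median change was -0.30. The control mean leaves out the spread between controls, whose geometric means ran from 0.121 to 0.285. By geometric mean, 67 of the 133 cCRE inserts lay above every control and 4 below every control. E007- gave the highest downstream value, 0.865, 0.800 and 0.885 (2.29 over controls, SE 0.14, adjusted p = 1.82e-06), above the vector without insert in every replicate. E055-, E007+ and E008- followed at 0.517, 0.672 and 0.770, at 0.613, 0.592 and 0.735, and at 0.487, 0.559 and 0.656. E030- and E030+ were lowest (0.141, 0.0707 and 0.0722, and 0.0850, 0.0871 and 0.116), with adjusted p of 0.00700 and 0.00123, and E075+ followed at 0.108, 0.101 and 0.112. Among promoter fragments used as inserts, P003- was highest at 0.798, 0.558 and 0.686, while P002+ gave 0.204, 0.244 and 0.266.

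The same oriented cCREs upstream and downstream of P001 could be set side by side for 118 inserts. Their boost indices correlated with Pearson's r = 0.50 and Spearman's rho = 0.40, and with r = 0.38 without E007 and E008 (n = 114). The libraries were separate and their scales differ, so only the indices are compared. E007 was high and E030+ low in both positions, with E030+ at -0.83 (SD 0.15) upstream and -1.57 (SD 0.12) downstream. Of the 118, 23 had opposite signs in all replicates of both assays, of which 2 exceeded 0.5 on both sides.

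**Figure D5:**
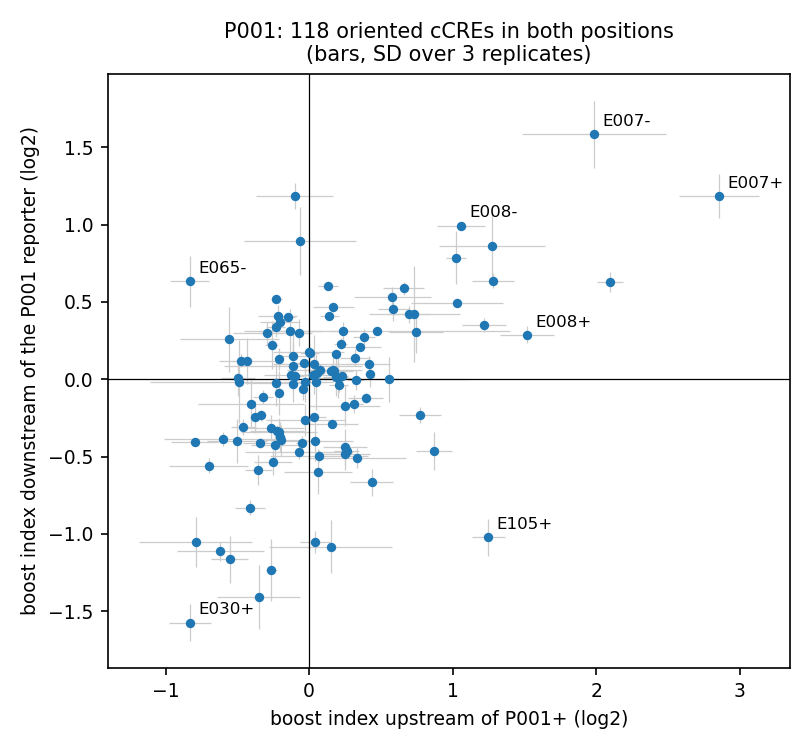
Boost index (log2) of 118 oriented cCREs upstream of P001+ (horizontal) and downstream of the P001 reporter (vertical); bars are the SD over 3 replicates. E007 stands at the upper right and E030+ at the lower left, while E105+ and E065- lie in the quadrants of opposite sign.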

How the data were processed

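The authors' deposited activity is a ratio of reporter RNA to plasmid barcodes for each of 3 biological replicates, and the deposited boost index is a log2 value. Barcode filters and scaling are not given in the sources used here, and the barcode depth behind a value is unknown. Coordinates follow mm10, and Bowtie2 is named, both per the submitters' processing notes. Recomputed indices equalled the deposited ones within 0.001 for 625 of 625 member pairs Upstream and 184 of 184 constructs Downstream. Further, 20 value columns that match no single sample were not used.

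Log2 activities of a construct and its baseline, 3 values against 3, were compared with limma 3.58.1 in R 4.3.3 (Python 3.11.15 otherwise), with Benjamini-Hochberg adjustment at 0.05 over all constructs of a class in the locus. Any construct listed at 0 in a replicate was dropped (5 with these fragments), with a pseudocount of 0.01 as an alternative. An exact permutation test of 3 against 3 cannot go below p = 0.1. A construct and its baseline come from the same transfection, so replicate numbers pair them by design. Deviations from the group means correlated with r of 0.02, 0.59 and 0.79 in replicates 1 to 3. The replicates share 1 plasmid pool, so their spread leaves out differences between barcodes. Promoters to compare against needed at least 5 other oriented promoters with the same cCRE. Named constructs are the 3 highest and 3 lowest of each oriented fragment, pairs of 2 zinc finger fragments, cCREs within 50 kb and the promoters next in order. The fragments and rules were chosen with earlier results of these data known.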

Additional observations from a re-analysis of the deposited data

Results flagged for a closer look

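E105+, within Sin3b, had a boost index of 1.25 upstream of P001+ and -1.02 downstream of the P001 reporter, a difference of 2.27. All 3 replicates were above 0 upstream and below 0 downstream. E065-, within Eps15l1, went the other way, with -0.83 upstream and 0.63 downstream, a difference of -1.46. The positions were measured in separate library mixes and these differences were not tested. The pairs were picked for opposite signs in all replicates and at least 0.5 on both sides.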

How the results depend on the processing

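With 3 values against 3, few degrees of freedom remain. Without any 1 replicate, calls for cCREs upstream numbered 0 to 0 with each fragment (87, 19 and 22 with all replicates). Over the same settings the counts ran from 0 to 43, 0 to 46 and 0 to 19 for promoters upstream of P001, P002 and P003. For the fragments placed upstream of promoters they ran from 0 to 22, 0 to 5 and 0 to 18, and for fragments followed by a cCRE from 72 to 230, 4 to 28 and 80 to 105. The orientation difference ran from 1.40 to 1.69 for P001 and from 1.96 to 2.09 for P003. The mean boost index ran from 0.080 to 0.13 with P001+ and from -0.064 to -0.039 with P003+. With the replicate block, calls rose to 158 and 39 for cCREs upstream of P001 and P002, to 38 and 8 for P001 and P002 upstream of promoters, and to 40 for P002 followed by a cCRE; it moved no other total by over 1.5 times, though lower calls rose from 16 to 26 and from 9 to 16 for promoters upstream of P001 and P003, from 12 to 20 for cCREs upstream of P003 and from 7 to 13 downstream of P001. With a variance trend, calls were 63 for cCREs and 38 for promoters upstream of P003, 31 and 7 for P001 and P002 upstream of promoters, and 14, 30 and 21 against other promoters. Against the median construct, calls fell to 23 with P001 and 11 with P003, with median changes of -0.015 and 0.020, and downstream of P001 to 63 (26 higher, 37 lower) with a median of -0.000747. Against the P001 vector the downstream median reversed to -0.30. Adjusting with Nanog pairs left 13 calls with P003. With the promoter alone as basal activity, mean indices were -0.59, -0.68, 0.25, -0.27 and 0.027 for P001+, P001-, P002+, P003+ and P003-. Leaving out E007 and E008 lowered the correlation between positions to 0.38; this was chosen after seeing the data. A negative control baseline upstream was not run, since the Upstream constructs analysed here hold no control class for this locus.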

Other observations

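Among oriented promoters of the locus with a geometric mean activity under 0.5 alone, P001- and both orientations of P002 included, replicates differed in a recurring way. Of these 27 promoters, replicate 3 was highest for 25 and replicate 2 lowest for 26, with medians of 0.144, 0.0632 and 0.275 in replicates 1 to 3.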
